A study of Mus musculus with 2 samples.

Results

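Collagens are the main structural proteins of the extracellular matrix. Their chains carry stretches in which glycine recurs in each triplet of residues, and 3 such chains wind into a triple helix. Fibrillar collagens form cable-like fibrils, other classes coat those fibrils, build sheets and filaments, or stay in the plasma membrane, and chains of type IV form the network of basement membranes, the thin matrix on which the epiblast of the early embryo sits. The genes described here are the 42 collagen chain genes in the deposited table other than the alpha 1 and alpha 2 chains of type IV, out of 18032 genes listed. They were chosen by symbol alone, Col followed by a type number, the letter a and a chain number.

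The study compared 2 populations of mouse cells by sequencing of polyadenylated RNA, with 1 library each. The cEpiSC library came from epiblast stem cells made in culture from embryonic stem cells in 2iLIF. These were plated on fibronectin in 2iLIF, and after 24 h the medium was exchanged for N2B27 with activin A at 20 ng/ml and FGF2 at 12 ng/ml, in which the cells spent 2 days. The mESC library came from the line ES-E14TG2a kept in 2iLIF, which is serum-free N2B27 with LIF at 100 units/ml, 1 µM of the ERK pathway inhibitor PD0325901 and 3 µM of the GSK3 inhibitor CHIR99021. Both were labelled wild type. The labels do not name the line from which the cEpiSC were made. The labels mention fibronectin in the conversion procedure alone, so matrix coating, medium and cell state cannot be told apart in any difference below.

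The libraries held 2.00e+07 (cEpiSC) and 1.98e+07 (mESC) estimated read counts, so 1 count equals 0.0489 and 0.0517 CPM, counts scaled to a common library size. The labels held up in direction against marker genes, which were chosen with earlier results of these data known. Among 10 naive pluripotency genes none was at least 2-fold higher and 7 were at least 2-fold lower in cEpiSC. Each of 10 genes of the primed or formative state was higher by that much. The shares over all genes compared below were 13.6% higher and 9.25% lower. The naive decrease was partial: the 10 naive genes summed to 34420.5 estimated counts in cEpiSC and 87299 in mESC. Levels are given as estimated counts and as TPM, a within-library share that corrects for transcript length and is the scale on which genes are compared with each other. Ratios are log2 ratios of cEpiSC over mESC from counts scaled with TMM, each with its exact 95% interval. With 1 library per state there is no replicate check and no test. The intervals cover counting error alone, and a gene is called higher or lower by size, at 2-fold or more. In bulk RNA, a change in the share of cells that use a gene and a change in RNA per cell cannot be told apart.

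All 42 genes carried the feature that defines the family. Their symbols name that family, so this describes the genes and is no independent check of the choice. In the longest GENCODE transcript of each gene, the longest unbroken run of triplets of a glycine codon followed by any 2 codons was 23 to 344 triplets, with a median of 58.5. Among 17444 other listed genes the median was 3, and 46 reached 10. The first 6 triplets of that run are shown for 4 chains whose levels differed between the libraries, with the glycine codon that opens each triplet in capitals. They come from chr10:77077693-77077746 (Col18a1), chr15:97996648-97997320 (Col2a1), chr9:105918186-105918239 (Col6a5) and chr3:114105402-114108289 (Col11a1) in GRCm38. The first 3 genes lie on the minus strand and Col11a1 on the plus strand, and each stretch of 54 coding bases spans 1 exon in Col18a1 and Col6a5 and 2 exons in Col2a1 and Col11a1.
Col18a1: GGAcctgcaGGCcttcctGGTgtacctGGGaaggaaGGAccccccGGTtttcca
Col2a1: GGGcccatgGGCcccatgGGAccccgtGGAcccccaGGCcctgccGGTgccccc
Col6a5: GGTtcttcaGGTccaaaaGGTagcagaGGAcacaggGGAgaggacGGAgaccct
Col11a1: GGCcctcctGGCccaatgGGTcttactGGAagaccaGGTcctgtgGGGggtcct
Col18a1 reached 30 such triplets in a row and Col6a5 37. The runs of Col2a1 with 339 and Col11a1 with 338 triplets were of the length shared by most fibrillar chains.

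Collagen transcripts other than those of type IV alpha 1 and alpha 2 were dominated by 1 gene in both libraries, and most of the others were scarce. Summed over the 42 genes, the level was 231 TPM in cEpiSC and 57.7 TPM in mESC, a 4.01-fold higher sum. Col18a1 alone made up 86.1% of that sum in cEpiSC and 60.3% in mESC. Without Col18a1 the sums were 32.1 TPM in cEpiSC and 22.9 TPM in mESC, 1.4-fold apart. A total of 4 genes had no count in either library (Col4a3, Col4a4, Col8a1 and Col19a1), and 38 had at least 1 count in one of them. The number of genes without any count was 5 in cEpiSC and 11 in mESC. Of all 18032 listed genes, 16374 had a count in cEpiSC and 15666 in mESC.

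**Figure D1:**
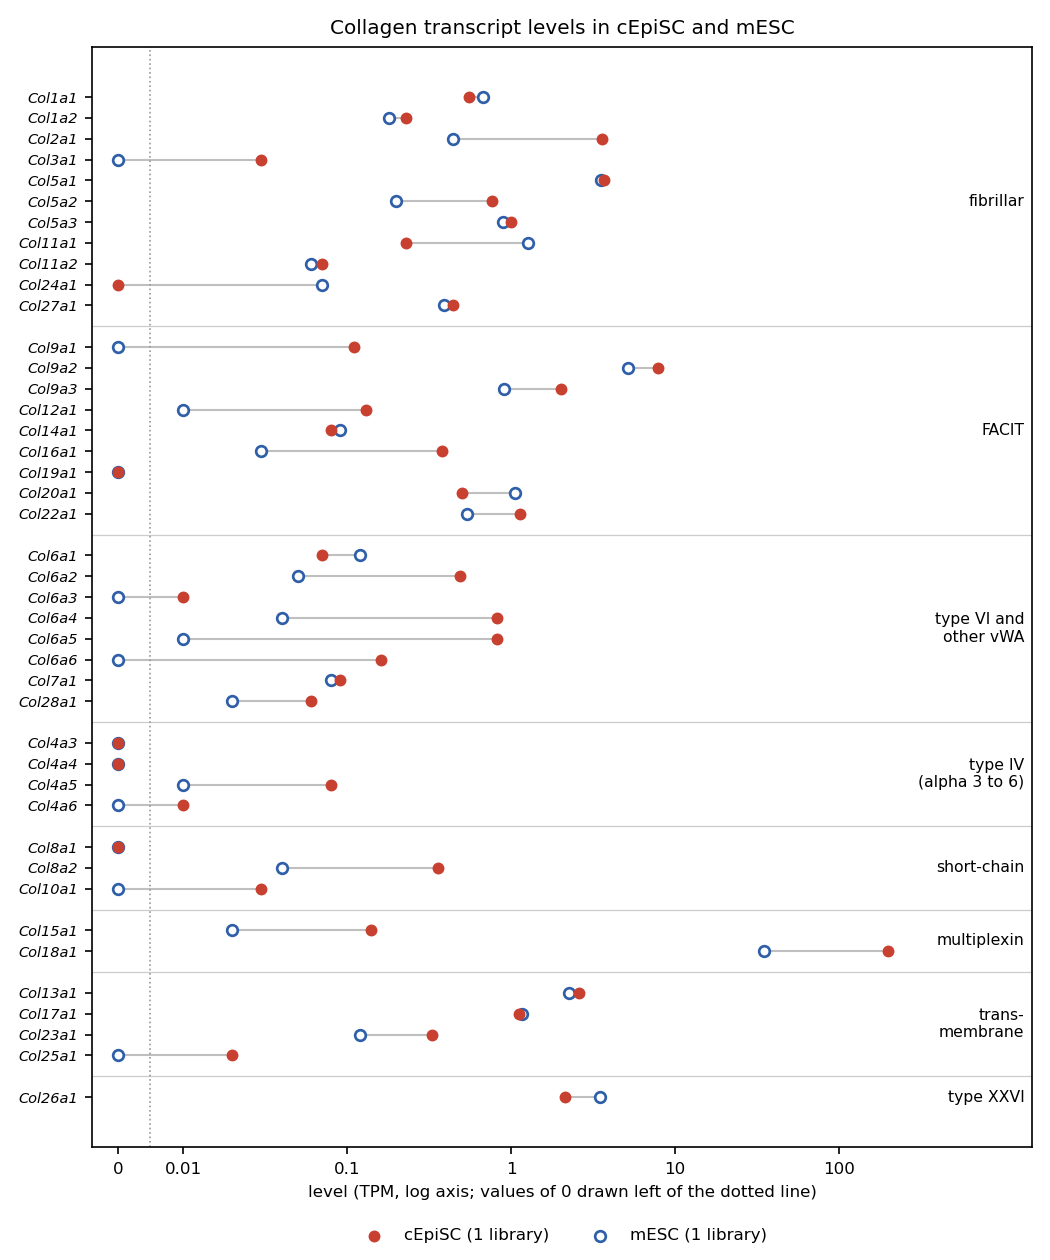
Level of each of the 42 collagens (TPM, log axis) in the cEpiSC library (filled points) and the mESC library (open points), by class, with values of 0 drawn left of the dotted line. Col18a1 stands apart at 199 TPM in cEpiSC and 34.8 TPM in mESC, no other gene exceeds 7.83 TPM, and the cEpiSC points of Col6a4, Col6a5 and Col6a6 lie far to the right of their mESC points.

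**Figure D2:**
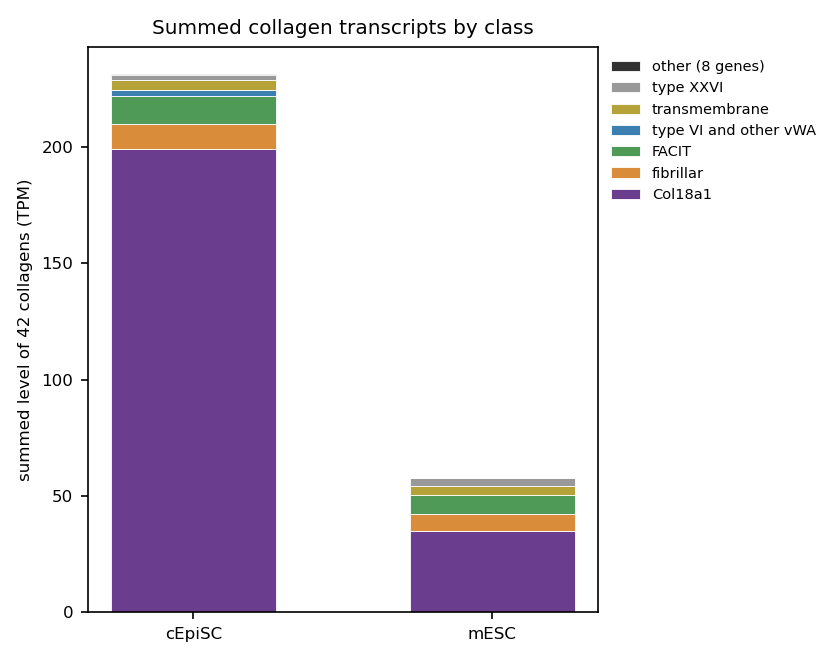
Summed level (TPM) of the 42 collagens in cEpiSC and mESC, stacked by class with Col18a1 by itself and Col15a1, type IV alpha 3 to 6 and short-chain collagens joined as 8 other genes. Col18a1 accounts for 199 of 231 TPM in cEpiSC and 34.8 of 57.7 TPM in mESC.

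Of the 42 genes, 20 reached 1 CPM in at least 1 library and were compared. At least 2-fold higher in cEpiSC were 10 of the 20, set against 13.6% of the 13243 genes compared, and 1 was at least 2-fold lower, set against 9.25%. The other 9 lay within 2-fold. For 7 of the higher collagens the whole interval was beyond 2-fold (9.15% of all genes compared), as it was for the lower one (6.34%). More scaled counts in cEpiSC than in mESC were found for 16 of the 20, set against 48.8% of all genes compared. Most collagens were low in abundance, where higher calls were frequent in general: among genes whose higher library lay from 1 to under 10 CPM, 32.8% were called higher and 12.9% lower, and for collagens in that range the counts were 8 and 1 of 16. At 10 CPM or more, 2 of 4 collagens were higher and none lower, set against 6.81% and 7.96% of genes at that level. A gene can enter through a single library, which bears on these counts and on those of the other gene lists below. Of the 20 collagens, 6 reached 1 CPM in cEpiSC alone, and all 6 were among those called higher, while 1 did so in mESC alone and was the one called lower. Of the 7 whose interval lay beyond 2-fold higher, all but Col18a1 and Col2a1 reached 1 CPM in cEpiSC alone. Of the 13 that reached it in both libraries, 4 were higher and none lower, set against 8.30% and 7.89% of the 11933 genes that did so. With no minimum level, 16 of the 42 were higher and 2 lower, set against 15.0% and 9.23% of all listed genes. On the scale of log2(TPM + 1), which understates differences of scarce genes, Col18a1 and Col2a1 were the only 2 collagens called higher and none was called lower. The median log2 ratio of the 20 was 0.86, beside -0.02 over all genes compared. For genes of low abundance alone, the matching median and the shares of ratios above 0 and of intervals beyond 2-fold were not computed.

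**Figure D3:**
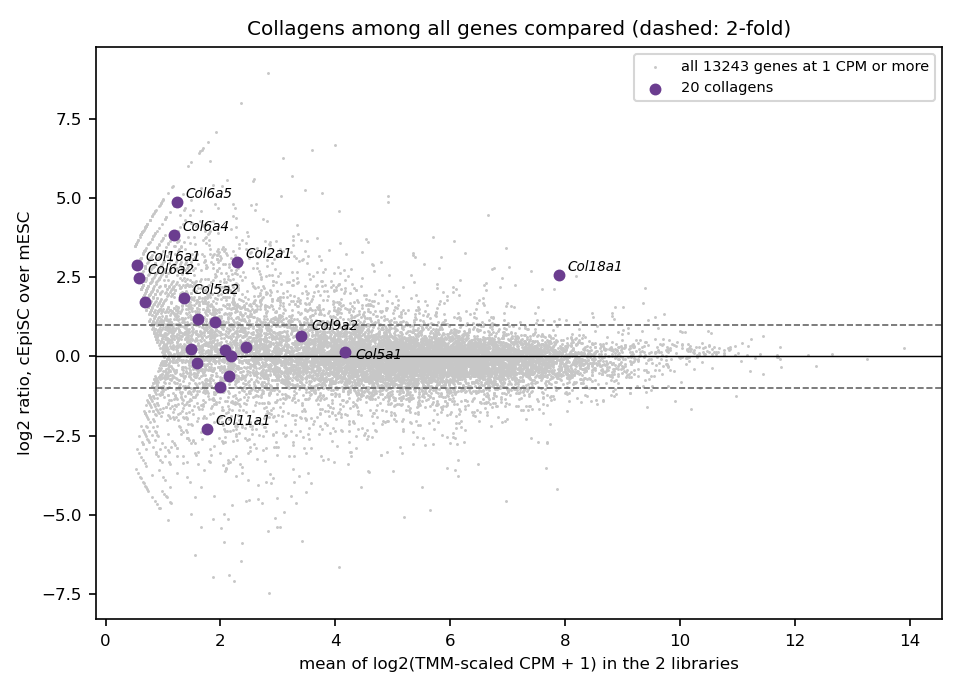
Log2 ratio of cEpiSC over mESC against the mean of log2(TMM-scaled CPM + 1) in the 2 libraries, for the 13243 genes compared (grey) and the 20 collagens among them (purple), with dashed lines at 2-fold. Col18a1 is the only collagen of high abundance, and the other higher ones lie at the low end, where the grey points spread most.

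Col18a1 belongs to the multiplexins, basement membrane collagens whose triple helix is broken up by many short interruptions. Its chain carries heparan sulfate, and its C-terminal fragment is endostatin, known as an inhibitor of blood vessel growth. The gene (Entrez 12822, chromosome 10, 77052178 to 77166530 in GRCm38.p6) had 11740 estimated counts in cEpiSC and 1881 in mESC, or 199 and 34.8 TPM. That is 5.90-fold higher in cEpiSC, a log2 ratio of 2.56 (2.49 to 2.63), and the narrow interval reflects the depth behind it. Col15a1, the other multiplexin and a component of the zone beneath basement membranes, had 8 counts in cEpiSC and 1 in mESC. For comparison, the type IV chains that are not part of this group stood at 16.3 TPM in cEpiSC and 2.57 TPM in mESC for Col4a1, and at 6.77 and 1.47 TPM for Col4a2. Markers of endoderm, an embryonic source of basement membrane, summed to 31.2 TPM in cEpiSC and 49.3 TPM in mESC over 13 genes, of which 7 were compared, with 1 higher and 2 lower (13.6% and 9.25% of all genes compared). Without Dab2, the gene of this list with the largest difference, the sums were 24.6 TPM in cEpiSC and 24.7 TPM in mESC. Among the others Cubn was higher, with 59 counts in cEpiSC and 5 in mESC, and reached 1 CPM in cEpiSC alone. Of the 7 ratios 4 were above 0. Endothelial markers summed to 66.9 TPM in cEpiSC and 125 TPM in mESC over 7 genes, and to 8.53 TPM in cEpiSC and 8.52 TPM in mESC without Pecam1. Of the 4 compared none was higher and 1 was lower (Kdr, which reached 1 CPM in mESC alone). Ttr and Erg had no count in either library, and the part of other cell types in the Col18a1 difference was not tested.

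RefSeq lists a pair of start sites for Col18a1, and the deposited counts do not separate them. Promoter windows are shown for Col18a1 as the most abundant collagen, and for Col6a5 and Col11a1 as those with the highest and the lowest ratio, from 250 bases before to 50 after the start site on the gene's strand (RefSeq, GRCm38.p6). They lie at chr10:77166481-77166780 and chr10:77113656-77113955 (Col18a1), chr9:105960594-105960893 (Col6a5) and chr3:114030290-114030589 (Col11a1). Capitals mark matches on either strand to the GC box GGGCGG and the CCAAT box CCAAT. None of the 4 windows held the TATA box letters TATAAA.
Col18a1 upstream start: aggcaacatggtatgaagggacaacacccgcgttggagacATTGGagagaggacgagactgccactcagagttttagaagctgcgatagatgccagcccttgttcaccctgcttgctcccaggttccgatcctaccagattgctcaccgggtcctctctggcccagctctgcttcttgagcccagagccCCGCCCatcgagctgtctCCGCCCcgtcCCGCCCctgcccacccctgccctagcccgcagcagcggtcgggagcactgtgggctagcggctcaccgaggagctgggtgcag
Col18a1 downstream start: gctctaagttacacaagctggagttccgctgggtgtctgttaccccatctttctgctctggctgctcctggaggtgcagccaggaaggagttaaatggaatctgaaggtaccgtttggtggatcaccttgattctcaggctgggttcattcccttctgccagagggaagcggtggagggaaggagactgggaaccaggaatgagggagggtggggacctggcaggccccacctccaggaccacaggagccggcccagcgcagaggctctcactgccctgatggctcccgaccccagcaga
Col6a5: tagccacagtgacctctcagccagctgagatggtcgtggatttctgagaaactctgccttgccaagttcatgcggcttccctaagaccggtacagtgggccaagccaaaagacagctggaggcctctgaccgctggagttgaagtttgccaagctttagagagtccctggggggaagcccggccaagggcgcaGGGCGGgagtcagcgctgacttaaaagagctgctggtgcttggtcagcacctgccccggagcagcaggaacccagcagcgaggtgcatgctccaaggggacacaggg
Col11a1: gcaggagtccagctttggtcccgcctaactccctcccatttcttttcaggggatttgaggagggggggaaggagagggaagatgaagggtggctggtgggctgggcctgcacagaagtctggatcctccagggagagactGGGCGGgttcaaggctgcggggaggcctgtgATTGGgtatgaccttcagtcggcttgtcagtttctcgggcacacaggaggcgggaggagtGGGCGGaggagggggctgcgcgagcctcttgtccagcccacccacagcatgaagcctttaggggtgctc
The upstream Col18a1 window held 3 GC boxes, 1 CCAAT box and 16 CpG dinucleotides. The downstream one held no match and 6 CpG. Col6a5 had 1 GC box, and Col11a1 had 2 together with 1 CCAAT box. Promoter windows were found for 33 of the 42 genes, 36 in all. The GC box was present in 21 of these 36 (58.3%) and in 35.7% of all 32851 windows, the CCAAT box in 11 (30.6%) and 37.4%, and the TATA letters in 5 (13.9%) and 13.6%. A match is a run of letters and says nothing of which factor binds.

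Among collagen VI chains, the 3 long chains of a single gene cluster and the alpha 2 chain had more counts in cEpiSC, while the alpha 1 chain was near 0 in both libraries. Collagen VI forms beaded filaments around cells. Its molecule is built from an alpha 1 chain, an alpha 2 chain and 1 chain out of alpha 3, 4, 5 or 6. Col6a5 (alpha 5, Entrez 665033, chromosome 9, 105856070 to 105962463) had 89 counts in cEpiSC and 1 in mESC, or 0.82 and 0.01 TPM, a log2 ratio of 4.87 (3.88 to 11.71). Col6a4 (alpha 4, Entrez 68553, chromosome 9, 105990318 to 106096828) had 72 counts in cEpiSC and 3 in mESC, or 0.82 and 0.04 TPM, a log2 ratio of 3.82 (2.90 to 6.82). The pair had the highest ratios of all collagens compared. Both reached 1 CPM in cEpiSC alone and lay between 1 and 10 CPM, where 32.8% of all genes were called higher. Col6a6 (alpha 6) lies next to them, had 13 counts in cEpiSC and none in mESC, and did not reach 1 CPM. The lower end of the interval for its log2 ratio was 1.53. The gaps between these neighbours were 27823 bases (Col6a6 to Col6a5) and 27854 bases (Col6a5 to Col6a4), with no other listed gene between them. Col6a4 shares exon bases with antisense genes that are not in the table (2.20% and 1.72% of its exon bases). The library kit marks the second strand with dUTP, but no source used here says whether counting took strand into account.

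The chains that partner these were uneven. Col6a2 (alpha 2) had 21 counts in cEpiSC and 2 in mESC, or 0.49 and 0.05 TPM, a log2 ratio of 2.47 (1.28 to 6.45). It too reached 1 CPM in cEpiSC alone. Its neighbour Col6a1 (alpha 1), 85161 bases away on chromosome 10, had 3 counts in cEpiSC and 5 in mESC, too few to show any difference. Col6a3 (alpha 3), which completes the molecule in most adult tissues, had 1 count in cEpiSC and 0 in mESC. In TPM, the alpha 1 chain stood at 0.07 in cEpiSC and 0.12 in mESC, below the 0.82 of the alpha 4 and alpha 5 chains in cEpiSC. Other collagens with von Willebrand A domains were close to 0 as well: Col7a1, the anchoring fibril collagen of skin, had 10 counts in cEpiSC and 8 in mESC, and Col28a1 had 3 and 1.

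Fibrillar collagens held both the most abundant of the higher genes after Col18a1, Col2a1, and the one lower gene, Col11a1. Of 11 genes 7 were compared, of which 2 were higher, 1 lower and 4 within 2-fold, beside 13.6% higher and 9.25% lower over all genes. The class summed to 10.6 TPM in cEpiSC and 7.68 TPM in mESC. Col2a1, the chain of cartilage and of the embryonic notochord (Entrez 12824, chromosome 15, 97975602 to 98004724), had 205 counts in cEpiSC and 23 in mESC, or 3.58 and 0.44 TPM. It was 8.43-fold higher, with a log2 ratio of 2.97 (2.45 to 3.77). Col11a1, which joins Col2a1 in cartilage fibrils (Entrez 12814, chromosome 3, 114030479 to 114220756), went the other way with 19 counts in cEpiSC and 96 in mESC, or 0.23 and 1.27 TPM, 5.34-fold lower at a log2 ratio of -2.30 (-3.21 to -1.70). Col11a2, another chain of that fibril type, had 4 counts in each library. Markers of cartilage and notochord summed to 16.8 TPM in cEpiSC and 4.50 TPM in mESC over 12 genes, of which 4 were compared, with 2 higher and 1 lower, beside 13.6% and 9.25% over all genes. Matn3, a cartilage matrix protein gene, made up most of that sum with 13.1 TPM in cEpiSC and 2.06 TPM in mESC, and the other 11 genes summed to 3.66 and 2.44 TPM. Matn1, the other higher gene, reached 1 CPM in cEpiSC alone, and the lower one, Sox6, did so in mESC alone. Sox9, the regulator of Col2a1 in cartilage, had 1 count in cEpiSC and 3 in mESC, and Noto and Shh had none in either.

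Type V collagen, which controls the width of type I fibrils, was the most abundant fibrillar type in both libraries through its alpha 1 chain. Col5a1 had 362 counts in cEpiSC and 312 in mESC, or 3.69 and 3.51 TPM, a log2 ratio of 0.13 (-0.09 to 0.36). Its partner Col5a2 had 59 counts in cEpiSC and 14 in mESC, or 0.77 and 0.20 TPM, and was 3.98-fold higher at a log2 ratio of 1.86 (1.14 to 2.95). The alpha 3 chain Col5a3 had 71 counts in cEpiSC and 58 in mESC, or 1.00 and 0.89 TPM, at 0.20 (-0.31 to 0.74). The alpha 2 chain thus stood below both of its partners on the TPM scale in each library, and by less in cEpiSC. Col3a1, 24624 bases from Col5a2 on chromosome 1 with no listed gene between them, had 2 counts in cEpiSC and 0 in mESC.

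The chains of type I collagen, the main collagen of connective tissue, were low and close in both libraries. Col1a1 had 38 counts in cEpiSC and 42 in mESC, or 0.55 and 0.67 TPM, a log2 ratio of -0.21 (-0.90 to 0.44), and Col1a2 had 14 and 10 counts, or 0.23 and 0.18 TPM. The interval of Col1a1 leaves room for a difference of nearly 2-fold in the lower direction. Markers of fibroblasts and mesenchyme summed to 112 TPM in cEpiSC and 114 TPM in mESC over 14 genes, mostly through Fbln1 at 62.1 and 95.8 TPM, and Postn, Prrx1 and Tcf21 had no count in either library. Of the 6 compared, 4 were higher (Mfap5, Mfap4, Thy1 and Twist1) and 1 lower (Pdgfrb), beside 13.6% higher and 9.25% lower over all genes. Without Fbln1 the list summed to 49.9 TPM in cEpiSC and 18.1 TPM in mESC, and the part of such cells in the fibrillar collagen values was not tested. Col27a1, a fibrillar chain of developing cartilage, had 40 counts in cEpiSC and 32 in mESC, at 0.23 (-0.47 to 0.96). Col24a1 had none in cEpiSC and 5 in mESC, and the upper end of the interval for its log2 ratio, 0.05, leaves room for equal levels.

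**Figure D4:**
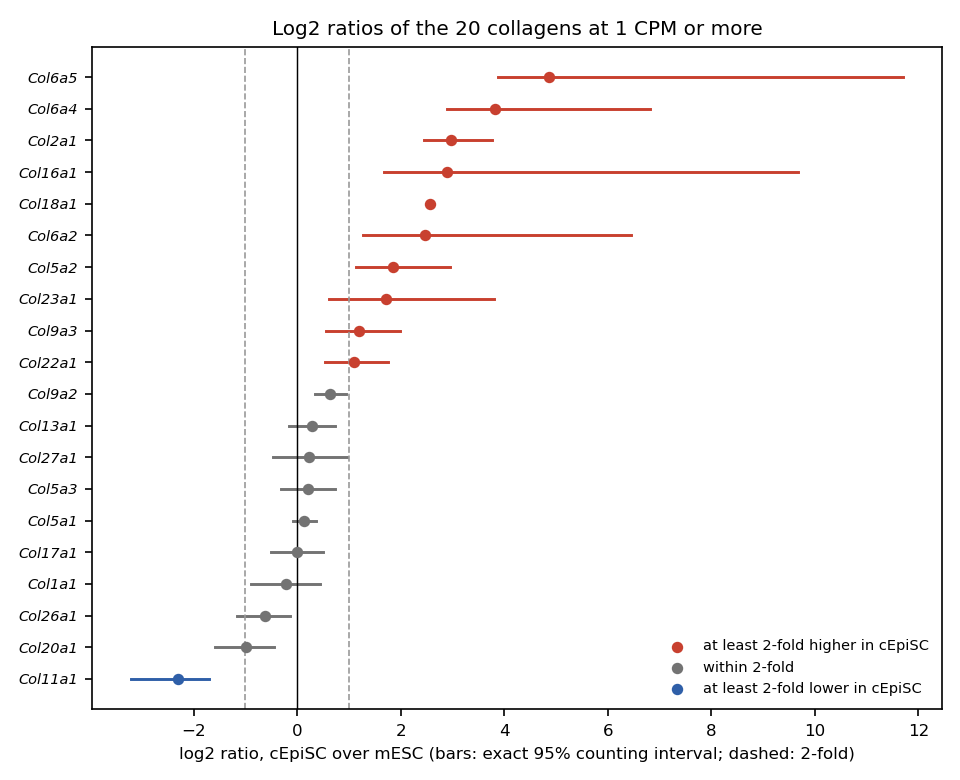
Log2 ratio of cEpiSC over mESC for the 20 collagens compared, in order of the ratio, with exact 95% counting intervals as bars and dashed lines at 2-fold. The ratios run from 4.87 for Col6a5 to -2.30 for Col11a1. The bars are widest for genes with few counts in mESC.

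FACIT collagens, which sit on the surface of fibrils and link them to other matrix proteins, had 3 higher and no lower among the 5 of 9 genes compared, beside 13.6% higher and 9.25% lower over all genes. The 3 higher ones lay between 1 and 10 CPM, where 32.8% of all genes were called higher. The class summed to 12.2 TPM in cEpiSC and 7.80 TPM in mESC. Type IX collagen is the FACIT of cartilage fibrils and needs 3 different chains. Col9a2 was the second most abundant collagen of the 42 in both libraries, with 245 counts in cEpiSC and 148 in mESC, or 7.83 and 5.17 TPM, a log2 ratio of 0.64 (0.35 to 0.95). Col9a3 had 62.6 estimated counts in cEpiSC and 25 in mESC, or 2.01 and 0.91 TPM, at 1.19 (0.56 to 1.98). That ratio is uncertain, since its count is not whole and 7.68% of its exon bases overlap exons of Tcfl5 on the opposite strand, which had 1326 counts in cEpiSC and 125 in mESC. The share of that overlap in the ratio was not tested. Col9a1, the remaining chain, had 3 counts in cEpiSC and 0 in mESC, so 1 of the 3 chains of type IX had at most 3 counts in either library.

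Among the other FACIT genes, Col22a1, a collagen of tissue junctions such as that of muscle and tendon, had 81 counts in cEpiSC and 35 in mESC, or 1.14 and 0.54 TPM, at 1.09 (0.54 to 1.75). Col16a1 had 21 counts in cEpiSC and 1 in mESC, or 0.38 and 0.03 TPM, at 2.89 (1.68 to 9.68). Col12a1, which binds type I fibrils, had 18 counts in cEpiSC and 1 in mESC and fell just short of 1 CPM, with an interval of 1.43 to 9.47 for its log2 ratio. Col20a1 had 42 counts in cEpiSC and 80 in mESC, or 0.50 and 1.05 TPM, at -0.98 (-1.59 to -0.45), just inside 2-fold and called lower with a smaller prior count. Col14a1 had 6 counts in each library.

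Transmembrane collagens had 1 of 3 higher, beside 13.6% of all genes, and a class sum of 4.08 TPM in cEpiSC and 3.54 TPM in mESC. The 3 compared lay between 1 and 10 CPM, where 32.8% of all genes were called higher. The higher one, Col23a1, reached 1 CPM in cEpiSC alone. Col13a1, found at cell adhesions and the neuromuscular junction, had 100 counts in cEpiSC and 77 in mESC, at 0.29 (-0.15 to 0.74). Col17a1, a hemidesmosome component that anchors epithelia to the basement membrane, had 72 counts in cEpiSC and 68 in mESC, at 0.00 (-0.50 to 0.50). Col23a1 had 22 counts in cEpiSC and 5 in mESC, at 1.71 (0.62 to 3.81), an interval that includes changes under 2-fold. Col25a1, a collagen of neurons, had 1 count in cEpiSC and none in mESC.

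Collagen XXVI, a short secreted chain first found in testis and ovary, stood at 2.12 TPM in cEpiSC and 3.49 TPM in mESC. Its 56 counts in cEpiSC and 83 in mESC gave a log2 ratio of -0.63 (-1.16 to -0.14). Network collagens were almost silent. Alpha 3 and alpha 4 of type IV, the chains of mature kidney basement membrane, had no count, Col4a5 had 6 counts in cEpiSC and 1 in mESC, and Col4a6 had 1 and 0. These chain genes lie in pairs, with an overlap of 114 bases between Col4a4 and Col4a3 and a gap of 1274 bases between Col4a6 and Col4a5. Of the short-chain collagens, Col8a2, a chain of the corneal endothelium's basement membrane, had 18 counts in cEpiSC and 2 in mESC with an interval of 1.03 to 6.24, and Col10a1, the chain of growth plate cartilage, had 1 and 0. In all, 22 of the 42 genes stayed under 1 CPM in both libraries, 14 of them with more counts in cEpiSC, 2 with more in mESC and 2 with equal counts. For 4 of the 22 the interval excluded equality. The matching shares over all genes under 1 CPM were not computed. Over all listed genes too, more had a count in cEpiSC (16374) than in mESC (15666).

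Collagen transcripts are long and rich in G and C, and 10 of the 20 compared fell in the longest of 10 equal bins of all genes compared by effective length and 10 in the bin with the highest GC content. The median log2 ratio over all genes in the longest bin was -0.32, and it was -0.01 in the bin with most GC. When ratios were centred on the median of each bin of length or of GC content, the 10 higher and the 1 lower collagen kept their calls. The bins holding a compared collagen had medians from -0.32 to 0.03. The weakest higher call was 1.09 (Col22a1) and the lower one -2.30 (Col11a1), so centring could not have removed a call.

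Collagen chains are modified in the endoplasmic reticulum before they fold, and genes of that step and of later maturation differed in both directions. Across 3 lists of 44 such genes, 35 were compared, of which 9 were at least 2-fold higher in cEpiSC, 3 lower and 23 within 2-fold, set against the same 13.6% and 9.25% of all genes compared. Their median log2 ratio was 0.11, beside -0.02 for all genes. Of the 15 modification genes compared, 4 were higher and none lower, beside the same shares. Fkbp10, a prolyl isomerase that helps procollagen fold, had 643 counts in cEpiSC and 94 in mESC, or 21.7 and 3.47 TPM, at 2.67 (2.38 to 3.02), with partly shared reads. The prolyl 4-hydroxylase subunit genes P4ha2, at 14.4 TPM in cEpiSC and 5.33 TPM in mESC, and P4ha1, at 58.5 and 27.8 TPM, were 2.79-fold and 2.32-fold higher. Their enzyme hydroxylates proline, which makes the triple helix stable at body temperature. Serpinh1, which encodes the collagen chaperone Hsp47, stood at 123 TPM in cEpiSC and 61.0 TPM in mESC, 2.08-fold higher with an interval of 0.96 to 1.15 on the log2 scale that includes 2-fold. The most abundant genes of this list were within 2-fold: Ppib, a prolyl isomerase gene, stood at 416 TPM in cEpiSC and 491 TPM in mESC, and P4hb, the disulfide isomerase that completes prolyl 4-hydroxylase, at 333 and 428 TPM.

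Of 11 export genes compared, 1 was higher, 1 lower and 9 within 2-fold, beside 13.6% higher and 9.25% lower over all genes. The counting interval lay above equality for 3 of the 11, below it for 5 and across it for 3. The matching shares over all genes were not computed, so these counts are not set apart from those of other genes. The 2 past 2-fold were those of related transcription factors of the secretory pathway, Creb3l1 with 33.02 TPM in cEpiSC and 9.57 TPM in mESC, at 1.82 (1.62 to 2.05), and Creb3l2 with 11.6 and 30.0 TPM, at -1.58 (-1.74 to -1.44). Sec13, a coat protein gene of export vesicles and the most abundant of the list, stood at 151 TPM in cEpiSC and 157 TPM in mESC, and Sec31a, its partner in the coat, at 92.1 and 143 TPM, at -0.59 (-0.64 to -0.53).

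Genes that process and crosslink secreted procollagen gave 4 higher, 2 lower and 3 within 2-fold of the 9 compared, beside 13.6% higher and 9.25% lower over all genes. Loxl1, a lysyl oxidase-like enzyme of crosslinking, had 154 counts in cEpiSC and 6 in mESC, or 4.02 and 0.17 TPM, and was 24.3-fold higher at 4.22 (3.45 to 6.07). Loxl2, of the same family and with partly shared reads, stood at 6.63 TPM in cEpiSC and 2.01 TPM in mESC, at 1.76 (1.47 to 2.09), while Lox itself had 2 counts in cEpiSC and none in mESC. The N-propeptidase genes Adamts2, with 42 counts in cEpiSC and 7 in mESC, and Adamts14, with 342 and 99, were 5.67-fold and 3.27-fold higher. Loxl1 and Adamts2 reached 1 CPM in cEpiSC alone and lay between 1 and 10 CPM, where 32.8% of all genes were called higher. The lower genes were the most abundant of the list: Pcolce, which enhances removal of the C-propeptide, stood at 58.9 TPM in cEpiSC and 203 TPM in mESC, at -1.74 (-1.84 to -1.64), and Sparc, which encodes a collagen-binding matrix protein, at 118 and 275 TPM, at -1.18 (-1.24 to -1.12). Their weight turned the sum of this list the other way from its count of calls, at 213 TPM in cEpiSC and 505 TPM in mESC.

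**Figure D5:**
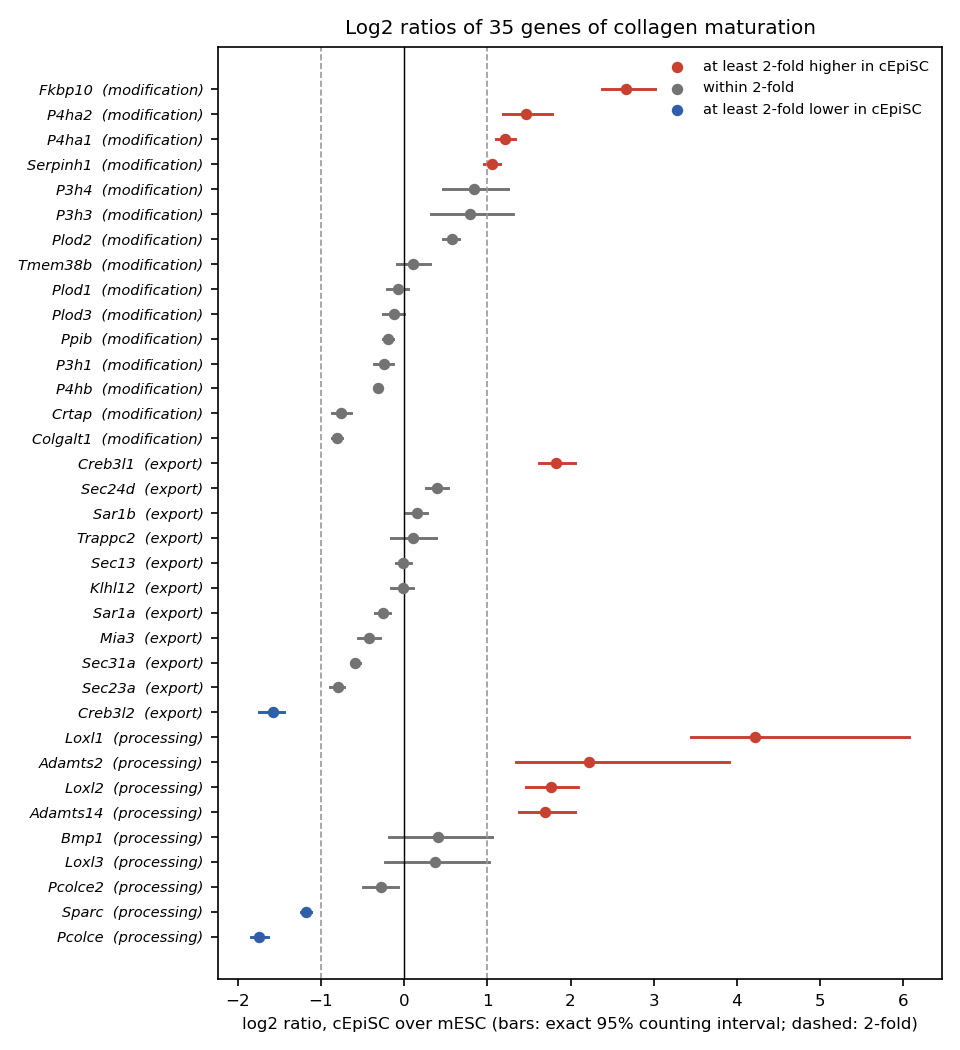
Log2 ratio of cEpiSC over mESC for the 35 maturation genes compared, grouped by step (modification, export, processing), with exact 95% counting intervals as bars and dashed lines at 2-fold. Of the export genes, 9 of 11 lie within 2-fold, whereas the processing list runs from 4.22 for Loxl1 to -1.74 for Pcolce.

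Collagen receptors gave 2 higher, 2 lower and 3 within 2-fold among the 7 of 12 compared, beside 13.6% higher and 9.25% lower over all genes. The 2 higher ones reached 1 CPM in cEpiSC alone and lay between 1 and 10 CPM, where 32.8% of all genes were called higher. Mrc2, an endocytic receptor that takes up collagen fragments, had 113 counts in cEpiSC and 6 in mESC, at 3.78 (2.99 to 5.63), and Itga1, the integrin chain that binds type IV and type I collagen, had 51 and 3, at 3.34 (2.38 to 6.33). Ddr2, a receptor tyrosine kinase for fibrillar collagens, was lower with 53 counts in cEpiSC and 284 in mESC, at -2.46 (-2.95 to -2.08). Adgrg1, an adhesion receptor with type III collagen as a ligand, was lower too with 184 and 736 counts, at -2.07 (-2.32 to -1.85), while its ligand gene Col3a1 had 2 counts in cEpiSC and 0 in mESC. Itgb1, the beta chain shared by all collagen-binding integrins, was the most abundant at 163 TPM in cEpiSC and 112 TPM in mESC, at 0.59 (0.54 to 0.64) with partly shared reads, and the discoidin receptor gene Ddr1 stood at 20.3 and 19.0 TPM. Itga2, Itga10 and Itga11, the other integrin chains that bind collagen, stayed under 1 CPM, with 2, 11 and 2 counts in cEpiSC and 0, 15 and 8 in mESC.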

How the data were processed

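Polyadenylated RNA of 1 cEpiSC and 1 mESC library was analysed from the table deposited by the authors. Per the file headers it gives estimated counts (not scaled by the authors), TPM and FPKM, both per kilobase as deposited. Tools listed in the submitters' processing notes are RSEM 1.3.1, HISAT2, Bowtie2 and DESeq2 1.34.0, with build GRCm38.p6 and the step each tool served not given in the sources used here.

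Rounded counts were scaled by TMM (factors 1.03 for cEpiSC and 0.975 for mESC), using R 4.3.3 with edgeR 4.0.16. Log2 ratios used a prior count of 2 over genes reaching 1 CPM in either library, with calls at 2-fold. Folds and exact conditional (Clopper-Pearson) 95% intervals leave out the prior. Intervals and floors (3 counts per library) cover counting error only and treat reads as independent. Reads amplified by PCR and lacking molecular identifiers are not independent, so the intervals may be too narrow. The calculation was tested on simulated data. No residual degrees of freedom remained (0), so no p-value was computed. Non-whole counts, by more than 0.005, were read as shared reads. Coordinates are from RefSeq and transcripts from GENCODE vM21, with Python 3.11.15 for the rest. Every collagen is reported. From other lists the text names up to 5 genes with the largest ratios past 2-fold and the 2 most abundant, and further ones after their values were seen. Members and lists were chosen with earlier results of these data known. Alternatives were other scalings (also DESeq2 1.42.0), filters, prior counts, units, centring on length or GC content, and leaving out shared reads.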

Additional observations from a re-analysis of the deposited data

How the results depend on the processing

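Calls depended on the minimum level and the unit more than on scaling. With DESeq2 size factors, library totals, a prior count of 5, or centring on length or GC content, all 10 higher and the 1 lower collagen kept their calls. For centring, the small bin medians given above fixed that outcome. With no minimum level the counts were 16 higher and 2 lower, since more genes entered. With a minimum of 5 CPM 4 collagens were left, 2 higher (Col18a1 and Col2a1) and 0 lower, with a median log2 ratio of 1.60 in place of 0.86. That median was 0.57 with no minimum level, 0.33 and 0.22 on the TPM and FPKM scales and 0.64 without non-whole counts, and 0.83 to 0.93 under the other alternatives. TPM with a pseudocount of 1 and FPKM with a pseudocount of 1 each gave the same 2 higher and 0 lower, because the pseudocount exceeds the level of most collagens. A prior count of 0.5 gave 2 lower, adding Col20a1, and without non-whole counts Col9a3 dropped out. The log2 ratio of the summed level was 2.00 in TPM, 2.12 in FPKM, 2.08 in TMM-scaled CPM and 0.49 without Col18a1. Of 203 repeats over the single collagens 178 stayed within the counting interval, 25 moved outside it and 0 called ones reversed. Settings that only changed the minimum level or left out non-whole counts reused the main ratios. Their repeats are among the 178 and could not move. Counts of higher and lower maturation genes stayed within 1.5 times under every alternative. No paired analysis was possible because each state has 1 library, and no replicate could be left out. For the 22 collagens under 1 CPM depth limits what can be seen: a count of 0 allows up to 0.147 CPM in cEpiSC and 0.155 CPM in mESC.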

Other observations

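Other secreted or membrane proteins, most of them with a collagen-like stretch, were also examined. Among those compared, C1qtnf4 and Emilin2 had longest runs of only 3 and 5 glycine triplets, and both lay within 2-fold. Of 27 listed genes 21 were in the table and 11 were compared, of which 5 were at least 2-fold higher in cEpiSC, 2 lower and 4 within 2-fold, set against 13.6% and 9.25% of all genes compared. Their summed level was 61.6 TPM in cEpiSC and 19.6 TPM in mESC. Cthrc1, a secreted protein with a short collagen repeat, was the most abundant of them in cEpiSC with 18.1 TPM, against 0.10 TPM in mESC, where it had 1 count. C1qtnf12, a member of the C1q and TNF related family, had 150 counts in cEpiSC and 15 in mESC, at a log2 ratio of 3.08 (2.47 to 4.11). Emid1, a secreted protein related to collagen XXVI in its N-terminal domain, stood at 12.2 TPM in cEpiSC and 3.79 TPM in mESC, at 1.77 (1.42 to 2.19), whereas Col26a1 itself was 1.57-fold lower. Ccbe1, which is needed for lymphatic vessel growth, had 12 counts in cEpiSC and 81 in mESC, at -2.64 (-3.85 to -1.95), and Scara5, a scavenger receptor gene, had 15 and 69, at -2.14 (-3.19 to -1.46). The remaining higher genes were Emilin1, an elastic fibre glycoprotein gene, with 198 counts in cEpiSC and 58 in mESC, and Colec12, a scavenger lectin gene with partly shared reads, with 242 and 108. Cthrc1 and C1qtnf12 reached 1 CPM in cEpiSC alone, and Ccbe1 and Scara5 did so in mESC alone. All of these but Cthrc1 lay between 1 and 10 CPM, where 32.8% of all genes were called higher and 12.9% lower.

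Markers of the primitive streak and mesoderm summed to 17.4 TPM in cEpiSC and 35.1 TPM in mESC over 12 genes, of which 6 were compared, with 2 higher (Mesp2 and Hand1) and 3 lower (Gsc, Mixl1 and T), set against the same shares. Gsc alone had 0.47 TPM in cEpiSC and 22.6 TPM in mESC, and without it the sums were 16.9 TPM in cEpiSC and 12.5 TPM in mESC. Hand1 reached 1 CPM in cEpiSC alone, and Gsc, Mixl1 and T did so in mESC alone. Leaving out the gene of a marker list with the largest difference in TPM was chosen after the values were seen. Neural markers summed to 104 TPM in cEpiSC and 106 TPM in mESC over 10 genes, mostly through Stmn2 at 89.8 and 96.5 TPM. Without Stmn2 they summed to 14.5 TPM in cEpiSC and 9.98 TPM in mESC. Of the 6 compared 3 were higher (Neurod1, Pax6 and Elavl3) and 1 lower (Nes), set against the same shares. The 3 higher ones reached 1 CPM in cEpiSC alone and lay between 1 and 10 CPM, where 32.8% of all genes were called higher. Neurod1 had 165 counts in cEpiSC and 2 in mESC, and Dcx had none in either.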
